A study of Mus musculus with 6 samples.

Results

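Single-cell RNA profiles of mouse dorsal root ganglia contained 605 cells, 2.79% of 21685, that had the RNA signature of A-delta low-threshold mechanoreceptors. A cell was a member when its counts of unique molecular identifiers (UMIs) were at least 2 for Ntrk2, at least 1 for Nefh and at least 1 for Colq and Cadps2 together, with fewer than 3 for Pvalb, fewer than 2 for Calb1 and fewer than 3 for Mrgprd and Lpar3 together. Members were thus chosen by the measured UMI counts of these 8 genes, and the levels of these genes in members are a description and not a result. The 6 mice, named by their label numbers, formed 3 groups. Mice 654 and 657 were Ttpa-/- on a vitamin E deficient diet, mice 670 and 671 were Ttpa-/- on a vitamin E supplemented diet, and mice 698 and 699 were Ttpa+/+ on a basal diet. Each group had 1 female and 1 male. The Ttpa-/- mice were 6 months old and the Ttpa+/+ mice 5 months old, so genotype, age and basal diet cannot be told apart. The labels name no promoter, cell type or strain for the Ttpa-/- allele. They call the cells of every sample neurons of the dorsal root ganglia.

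Dorsal root ganglion neurons carry touch, position, temperature, itch and pain signals from skin and muscle to the spinal cord. A-delta low-threshold mechanoreceptors are thinly myelinated touch neurons. They end around hair follicles of the skin and respond to light deflection of the hairs. They are marked by TrkB, the receptor for brain-derived neurotrophic factor encoded by Ntrk2, and by the T-type calcium channel gene Cacna1h. Ttpa encodes the alpha-tocopherol transfer protein of the liver, which keeps vitamin E in the circulation, and its loss in people causes ataxia with sensory loss. Nefh encodes the heavy neurofilament of large myelinated neurons. Pvalb, Calb1, Mrgprd and Lpar3 mark proprioceptors, rapidly adapting touch neurons and non-peptidergic nociceptors, which the rule kept out.

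The libraries of the 6 mice held 12538785 to 19383933 UMIs and 2858 to 4098 cells. Members had a median of 5869 UMIs, against 3505.5 in all other cells. Members of the Ttpa-/- mice had medians of 3690.5 UMIs in mouse 654, 8758.5 in 657, 3952 in 670 and 6209 in 671, against 6898 in 698 and 8014 in 699 of the Ttpa+/+ mice. Mice 654 and 670 therefore gave the shallowest member profiles. Summed over members, each mouse gave 395085 to 1056332 UMIs. Some barcodes recurred between libraries: 261 of 21424 distinct barcodes were found in more than 1 library, 17 members carried such a barcode, and none was a member in more than 1 library. Doublets were scored but not removed; 18 members (2.98%) were called doublets, against 635 of all cells (2.93%). Ttpa itself had 0 UMIs in the members of every mouse, Ttpa+/+ included, which allows a share of cells with a UMI of up to 0.496%, so it gave no check of the genotype labels. Levels below are in CPM, the UMIs of a gene scaled to all UMIs of the members of a mouse.

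The genes that name the cells were read on the genome of the deposited processing (mm10, GRCm38). Ntrk2 lies at chr13:58806569-59133970 on the plus strand. Cadps2, which encodes a protein that primes dense-core vesicles for release, lies at chr6:23262773-23839421 on the minus strand. Necab2, which encodes a neuronal calcium-binding protein and which the rule did not use, lies at chr8:119446719-119472640 on the plus strand. Since Ntrk2 and Cadps2 carried the rule and Necab2 was a marker outside it, the 250 bases before the start of each are shown, 5′ to 3′ on the gene's strand, from RefSeq (GRCm38.p6), at chr13:58806319-58806568, chr6:23839422-23839671 and chr8:119446469-119446718. Capitals mark GC boxes, GGGCGG on either strand.
Ntrk2: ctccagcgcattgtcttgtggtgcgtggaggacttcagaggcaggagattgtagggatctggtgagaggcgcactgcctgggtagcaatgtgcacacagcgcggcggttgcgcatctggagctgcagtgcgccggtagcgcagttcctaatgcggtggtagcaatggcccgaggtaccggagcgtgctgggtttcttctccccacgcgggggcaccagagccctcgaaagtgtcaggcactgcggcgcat
Cadps2: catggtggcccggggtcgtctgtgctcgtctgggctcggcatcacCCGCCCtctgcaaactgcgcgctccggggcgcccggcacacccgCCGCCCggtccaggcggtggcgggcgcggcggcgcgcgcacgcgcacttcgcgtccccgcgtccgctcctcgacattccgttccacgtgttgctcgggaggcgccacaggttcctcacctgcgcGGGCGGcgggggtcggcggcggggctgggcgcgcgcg
Necab2: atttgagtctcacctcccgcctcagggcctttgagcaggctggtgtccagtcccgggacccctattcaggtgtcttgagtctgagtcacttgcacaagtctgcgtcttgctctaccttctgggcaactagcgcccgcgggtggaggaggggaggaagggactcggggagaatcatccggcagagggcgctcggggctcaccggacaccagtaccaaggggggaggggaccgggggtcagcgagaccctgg
The Cadps2 window held 3 GC boxes and the windows of Ntrk2 and Necab2 held 0; 32.7% of 32851 RefSeq windows of the same length held at least 1. The GC content was 78.0% for Cadps2, 64.0% for Necab2 and 62.8% for Ntrk2, against a median of 52.4% over all windows. The T-box motif AGGTGTGA, searched on both strands because Tbx3 marks these cells, was not in these 3 windows and was in 1.12% of all windows.

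The label was checked against 6 markers of A-delta low-threshold mechanoreceptors, of which the rule used 3. Cadps2 carried the rule almost alone. It had a UMI in 603 of 605 members (99.7%), whereas Colq, which encodes the collagen tail that anchors acetylcholinesterase, had a UMI in only 72 (11.9%). By these 2 genes, 533 members had Cadps2 without Colq, 70 had both and 2 had Colq without Cadps2. Colq was still rarer elsewhere, with a UMI in 0.119% of all other cells. The label's Colq thus describes few of the members cell by cell at this depth, and the cells are called A-delta-like members below.

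The 3 markers that the rule did not use were high in members. Tbx3, a T-box transcription factor, had a UMI in 67.8% of members (95% exact binomial interval 63.9 to 71.5%), Cacna1h in 48.8% (44.7 to 52.8%) and Necab2 in 56.0% (51.97 to 60.03%); these intervals cover counting error only. All 3 were found in 148 members (24.5%) and none of them in 71 (11.7%). Free RNA can give a UMI to a cell that does not express a gene, so non-peptidergic cells with Mrgprd or Lpar3, which had a higher median depth of 9569.5 UMIs, served as a background. In these 834 cells the shares were 0.360% for Tbx3, 0.240% for Cacna1h and 1.44% for Necab2. Cells with Th, the gene of C-fibre touch neurons, had 8.22%, 11.03% and 25.4% in the same order of genes.

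Thinning every cell to 2000 UMIs lowered all shares but kept the order. Tbx3 then had a UMI in 34.1% of 580 members, against 16.3% of Calb1 neurons and at most 2.603% of the other populations plotted. Cacna1h had a UMI in 19.0% of thinned members, against 0 to 4.15% of the other populations. Necab2 had a UMI in 26.7% of thinned members, against 8.11% of Th cells and at most 2.19% elsewhere. Tbx3 was thus shared in part with Calb1 neurons and Necab2 in part with Th cells. However, 143 of the 361 Calb1 neurons met every member condition except that on Calb1.

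**Figure D1:**
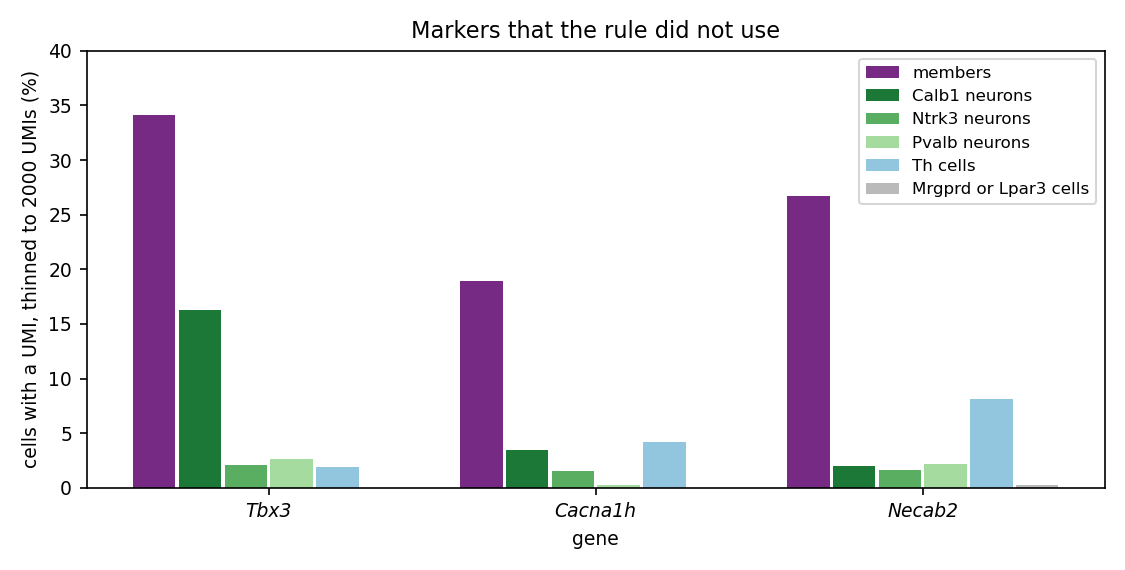
Share of cells with a UMI for Tbx3, Cacna1h and Necab2 after every cell was thinned to 2000 UMIs (y axis, percent), in members and in 5 other populations (bars, 1 value over all cells each, no error drawn). Members had the highest share for each gene, at 34.1%, 19.0% and 26.7%.

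Of markers of other cell types, those of the neighbouring A-beta neurons were high in members. Several lists below hold genes that chose members or the other populations: Pvalb, Calb1, Ntrk3, Th, Mrgprd and Lpar3. The sums of those lists thus differ in part by construction and are a description. The 5 A-beta markers summed to 1516 to 1842 CPM in members, against 2820 to 3243 CPM in Calb1 neurons, 1987 to 2639 CPM in Ntrk3 neurons, 3432 to 4011 CPM in Pvalb neurons and 567 to 1043 CPM in all other cells. Members thus lay below each of the other myelinated populations and above all other cells, and the part of this RNA in the results was not tested. The summed level of 5 proprioceptor markers was 23.3 to 40.6 CPM in members, against 3220 to 4537 CPM in Pvalb neurons, and Runx3 and Whrn were at 0. The 5 markers of rapidly adapting neurons summed to 93.7 to 197 CPM in members, against 1022 to 1508 CPM in Calb1 neurons. Mafa was at 0 in every population. These markers were not confined to Calb1 neurons. They summed to 730 to 807 CPM in Th cells, 566 to 758 CPM in Mrgprd or Lpar3 cells, 368 to 500 CPM in Ntrk3 neurons and 171 to 229 CPM in Pvalb neurons. The 4 C-fibre touch markers summed to 53.2 to 81.2 CPM in members and 1704 to 2026 CPM in Th cells, and the 4 non-peptidergic markers to 6.25 to 18.2 CPM in members and 786 to 1083 CPM in Mrgprd or Lpar3 cells. Glial RNA was detected in members too, and its part in the results was not tested: 5 satellite glia markers summed to 281 to 451 CPM in members and 424 to 871 CPM in all other cells, and 7 Schwann cell markers to 455 to 635 CPM in members and 547 to 745 CPM in all other cells, with Prx and Mag at 0 in members. The 5 peptidergic markers summed to 60.7 to 203 CPM in members, highest in mouse 699, and to 2408 to 3399 CPM in all other cells.

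Members differed among themselves with the level of Ntrk2. Cells just inside the threshold, with 2 Ntrk2 UMIs, numbered 66, and Tbx3 had a UMI in 53.0% of them, Cacna1h in 19.7% and Necab2 in 28.8%. The 76 cells just outside, with 1 Ntrk2 UMI and the other conditions met, had shares of 30.3%, 11.8% and 19.7% at a similar median depth (3613.5 UMIs inside, 3804.5 UMIs outside). The 127 members with 10 or more Ntrk2 UMIs had shares of 81.9%, 66.1% and 83.5%, at a median depth of 8716 UMIs. As CPM, which scales with depth, Necab2 was at 95.6 CPM in members with 2 Ntrk2 UMIs and at 190 CPM in those with 10 or more, while Tbx3 was at 159 and 202 CPM and Cacna1h at 56.6 and 126 CPM. Cells with 0 Ntrk2 UMIs that met the other conditions had 20.1 CPM of Necab2, 16.2 CPM of Tbx3 and 6.57 CPM of Cacna1h, and 69.0% of them had a Calca UMI, the gene of a peptide of nociceptors. Each marker was lower in every step outward from the threshold, and cells with 1 Ntrk2 UMI lay between those with 0 and those with 2.

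**Figure D2:**
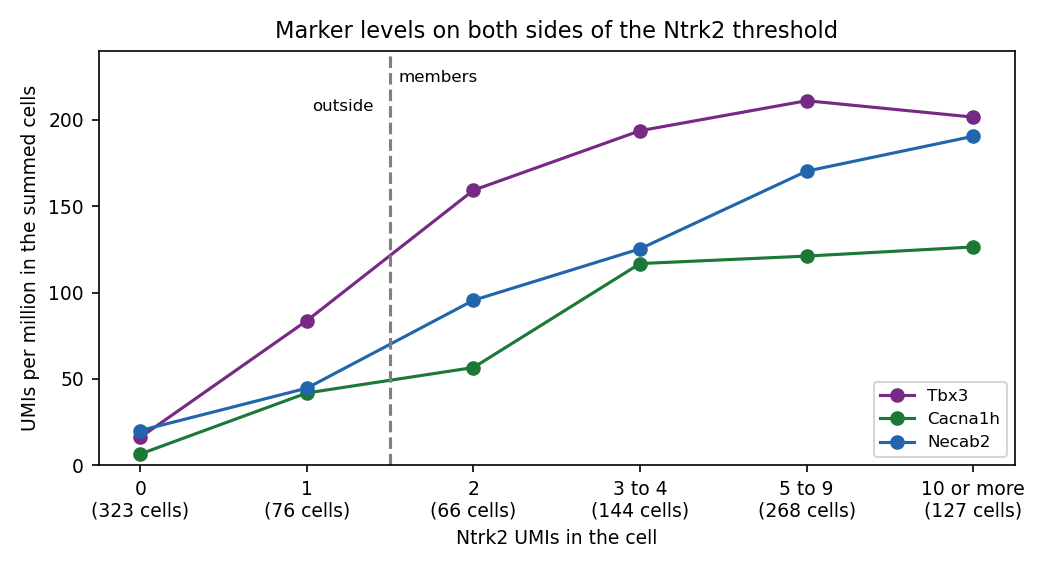
Levels of Tbx3, Cacna1h and Necab2 (y axis, CPM of the summed cells) by the number of Ntrk2 UMIs in the cell (x axis, with the number of cells), for cells that met the other conditions of the rule. Cells left of the dashed line were outside the rule and cells right of it were members; Necab2 was at 44.7 CPM with 1 Ntrk2 UMI and 95.6 CPM with 2.

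The other edges of the rule cut less evenly. The 54 members with 1 UMI of Colq and Cadps2 together had Tbx3 in 40.7%, Cacna1h in 20.4% and Necab2 in 20.4%, and the 81 cells outside with 0 had 21.0%, 3.70% and 8.64%. The 52 members with 1 Calb1 UMI had Tbx3 in 67.3%, Cacna1h in 57.7% and Necab2 in 57.7%, whereas the 143 cells outside with 2 or more Calb1 UMIs had 61.5%, 17.5% and 10.5%. At the Calb1 edge, then, Tbx3 hardly differed while Cacna1h and Necab2 did. Only 9 members had a Pvalb UMI, and 7 cells were left out for Pvalb. At the Nefh edge, 62 members with 1 UMI had Tbx3 in 45.2% and 31 cells outside with 0 had it in 41.9%.

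The share of cells that were members did not differ between the groups beyond the spread of the mice. It was 2.73% and 2.169% in mice 654 and 657 of the deficient Ttpa-/- group, 2.38% and 3.09% in mice 670 and 671 of the supplemented Ttpa-/- group, and 2.67% and 3.64% in mice 698 and 699 of the Ttpa+/+ group. The groups overlapped, with mouse 699 alone above the rest. Both Ttpa-/- groups together averaged 2.59% ± 0.404 (SD, n = 4 mice) and the Ttpa+/+ group 3.16% ± 0.684 (SD, n = 2 mice; two-sided exact permutation p = 0.400, where 0.133 is the smallest this design allows). Deficient mice against Ttpa+/+ mice, supplemented mice against Ttpa+/+ mice and deficient mice against supplemented mice each gave an exact permutation p of 0.667, with a smallest possible p of 0.333. After thinning of cells to 2000 UMIs, the shares were 1.97% and 0.878% in deficient, 1.81% and 1.97% in supplemented and 1.41% and 1.63% in Ttpa+/+ mice. The difference between Ttpa-/- and Ttpa+/+ mice then turned from -0.563 to 0.140 percentage points, so no direction of the share can be given.

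**Figure D3:**
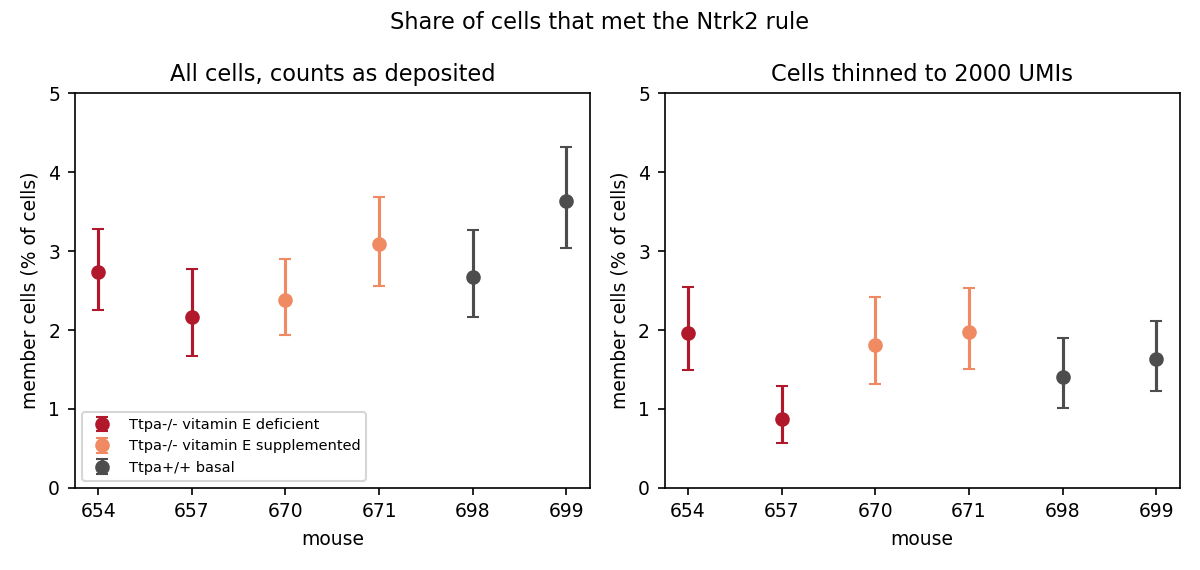
Share of cells that were members (y axis, percent of cells, bars show 95% exact binomial intervals for counting error) in each mouse (x axis), from the deposited counts on the left and after every cell was thinned to 2000 UMIs on the right. Mouse 699 had the highest share on the left, 3.64%, and mouse 657 the lowest on the right, 0.878%.

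To see what else sets these cells apart, members were compared with 3 other myelinated populations of the same mice. These were 361 Calb1 neurons, 1260 Ntrk3 neurons and 786 Pvalb neurons, each chosen by UMIs of Nefh and of the gene that names it. Cells with Mrgprd and Lpar3 were kept out of all 3, and cells high in Pvalb out of the first 2. Cells high in Calb1 and members were also kept out of the Ntrk3 neurons. Ntrk2, Colq and Cadps2 kept no cell out of the Calb1 or Pvalb neurons. Of the 361 Calb1 neurons, 143 met every member condition except that on Calb1, so this population partly resembled members by choice. The Ntrk3 neurons were a mixture, since a UMI of Calca was found in 43.9% of them. UMIs were summed per mouse and population and tested with edgeR's quasi-likelihood test with mouse as a block and Benjamini-Hochberg adjustment. At an adjusted p under 0.05, members were higher for 1292 genes and lower for 1264 of 5978 against Calb1 neurons (42.8% called), higher for 1730 and lower for 1782 of 7143 against Ntrk3 neurons (49.2% called), and higher for 1793 and lower for 1810 of 6532 against Pvalb neurons (55.2% called). About as many genes were called in each direction. Populations cut by marker genes differ by construction in whatever goes with those markers, so these calls describe the populations, and the 9 genes that chose either side were left out of the counts. Against all 3 populations and in 6 of 6 mice each time, 297 of the 5883 genes tested in common were higher in members and 263 were lower.

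The genes highest in members against all 3 populations were of several kinds. Lypd1, which encodes a modulator of nicotinic receptors, was at 98.7 to 177 CPM in the 6 mice and higher by 4.17 ± 0.20 against Calb1, 3.57 ± 0.14 against Ntrk3 and 4.84 ± 0.20 against Pvalb neurons (log2 ± SE). Tagln2, of the actin-binding transgelin family, was at 392 to 483 CPM and higher by 4.20 ± 0.15, 2.99 ± 0.09 and 5.01 ± 0.12 in the same order of populations. P2ry1, a receptor for ADP, was at 650.5 to 1004 CPM and higher by 3.03 ± 0.10, 2.65 ± 0.08 and 4.11 ± 0.09. Among genes of an average of at least 6 log2 CPM, others among the highest by the smallest of their 3 differences were Pdlim1 at 3.48, Plk2 at 2.76, Moxd1 at 2.69, Vgf at 2.499, Pld5 and Nptx2 at 2.44 and Rgs5 at 2.33. Vgf, the precursor of secreted peptides, was at 238 to 363 CPM. Nptx2, a secreted pentraxin of synapses, was at 135 to 175 CPM. In the opposite direction, Slc24a2, a sodium, calcium and potassium exchanger, was at 14.1 to 42.5 CPM in members and lower by -3.82 ± 0.16, -3.14 ± 0.13 and -4.18 ± 0.12, and Pak1 and Cdk14, both kinases, were lower against each population too.

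**Figure D4:**
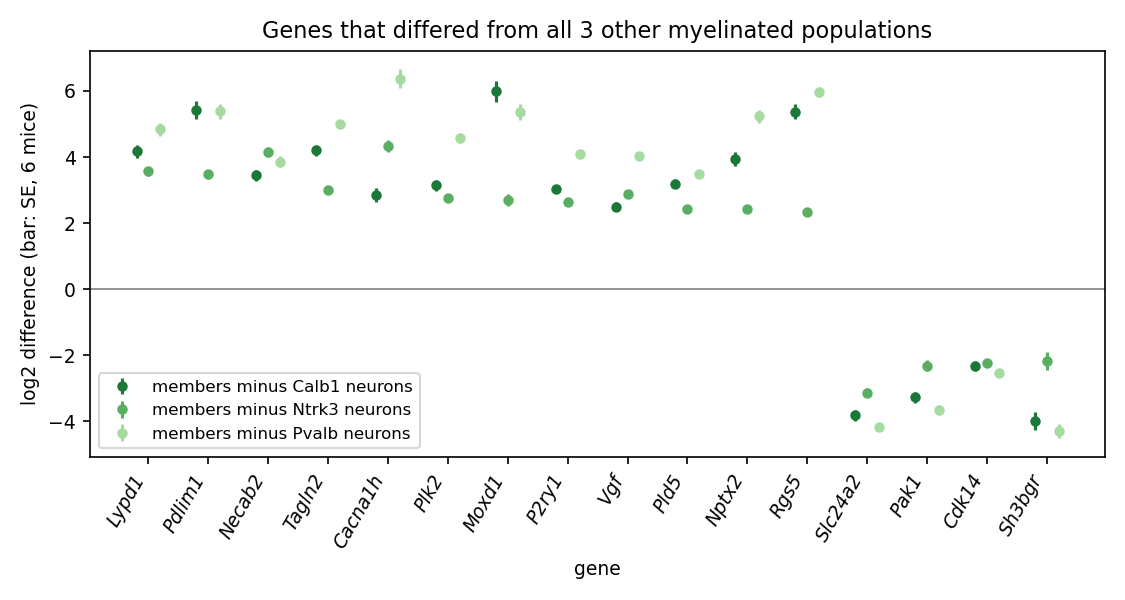
Log2 difference of members minus each of 3 other populations (y axis, dots, with SE bars from the edgeR fit of 6 mice). The genes were the 12 highest and the 4 lowest in members against all 3, among genes of at least 6 log2 CPM on average. The 12 genes on the left lie above 0 and the 4 on the right below 0 for every population, and Cacna1h was highest against Pvalb neurons at 6.38.

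Of voltage-gated calcium channel genes, 5 were higher and 1 lower of 8 tested against Calb1 neurons, 4 and 1 of 10 against Ntrk3 neurons and 6 and 1 of 9 against Pvalb neurons. Of all genes, 21.6%, 24.2% and 27.4% were called higher and 21.1%, 24.9% and 27.7% lower in these comparisons. Cacna1h was at 116, 124, 142 and 108 CPM in mice 654, 657, 670 and 671 and at 85.9 and 130 CPM in mice 698 and 699. It was higher by 2.85 ± 0.20, 4.34 ± 0.17 and 6.38 ± 0.28 (log2 ± SE), and the auxiliary subunit gene Cacna2d2 was higher by 2.06 ± 0.26, 1.30 ± 0.17 and 3.00 ± 0.27. Scn10a, the sodium channel of nociceptors, was at only 2.53 to 10.4 CPM in members. Of potassium and HCN channel genes, 10 were higher and 11 lower of 25 against Calb1, 14 and 11 of 30 against Ntrk3, and 11 and 12 of 27 against Pvalb neurons. Kcnc2, a fast delayed rectifier, was higher by 2.80 ± 0.28, 2.05 ± 0.19 and 3.43 ± 0.26.

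Among genes of touch transduction, Piezo2, the main mechanically gated channel of touch neurons, was at 572 to 691 CPM in members and higher by 0.99 ± 0.09, 0.47 ± 0.06 and 1.32 ± 0.06. Asic2, an acid-sensing channel gene, was higher by 0.96 ± 0.09, 1.02 ± 0.07 and 2.06 ± 0.09, and Stoml3 had 0 UMIs in members of every mouse. Over the 8, 8 and 9 touch channel genes tested, 2 were called higher and 0 lower against Calb1, 3 and 1 against Ntrk3, and 2 and 4 against Pvalb neurons. Of all genes, 21.6%, 24.2% and 27.4% were called higher in these comparisons, and 21.1%, 24.9% and 27.7% were called lower.

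Among genes of vesicle release, paralogues differed in opposite directions. Syt1, the common calcium sensor of release, was at 726 to 980 CPM in members and higher by 2.59 ± 0.10, 2.18 ± 0.07 and 2.73 ± 0.07. Syt2, a faster sensor of the same family, was at 24.99 to 68.5 CPM and lower by -2.85 ± 0.12, -1.95 ± 0.10 and -2.94 ± 0.10. Rab3b, a vesicle GTPase, was higher by 3.97 ± 0.31, 3.66 ± 0.20 and 6.28 ± 0.33. Cadps, the paralogue of the rule gene Cadps2, was lower by -0.68 ± 0.08, -0.61 ± 0.07 and -0.94 ± 0.06. Vamp1, a vesicle SNARE, was lower by -1.87 ± 0.09, -0.83 ± 0.08 and -1.89 ± 0.07. Over the list, 5 genes were higher and 16 lower of 28 tested against Calb1, 12 and 11 of 30 against Ntrk3, and 6 and 16 of 28 against Pvalb neurons. The shares over all genes were 21.6%, 24.2% and 27.4% higher and 21.1%, 24.9% and 27.7% lower.

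Neurofilament and axon node genes were mostly lower in members. Of 14 tested against Calb1 neurons, 1 was higher and 11 lower. Against Ntrk3 neurons these were 0 and 9 of 14, and against Pvalb neurons 2 and 11 of 16. The shares over all genes were 21.6%, 24.2% and 27.4% higher and 21.1%, 24.9% and 27.7% lower. Nefh, on this list, belonged to the rule. Cntnap2, a protein beside the node of Ranvier, was at 91.8 to 162 CPM in members and lower by -1.15 ± 0.11, -1.57 ± 0.08 and -3.10 ± 0.08. Nefl, the light neurofilament, was lower by -0.97 ± 0.06, -0.34 ± 0.06 and -0.53 ± 0.04. Prph, the intermediate filament of small neurons, differed in direction: higher by 0.47 ± 0.07 against Calb1 neurons and 0.71 ± 0.05 against Pvalb neurons and lower by -0.22 ± 0.06 against Ntrk3 neurons.

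Trophic receptors and transcription factors were called in both directions. Of neurotrophin and GDNF receptors and ligands, 2 were higher and 2 lower of 7 against Calb1, 2 and 4 of 9 against Ntrk3, and 6 and 3 of 9 against Pvalb neurons. Ret, the receptor of GDNF ligands, was at 43.0 to 80.9 CPM in members and lower by -2.56 ± 0.12, -2.29 ± 0.10 and -0.69 ± 0.13. Ntrk3, the NT-3 receptor, was at 179 to 266 CPM and found in 66.0% of members, against 69.0% of Calb1 neurons; 215 members had 2 or more Ntrk3 UMIs. Bdnf, the ligand of TrkB, was at 69.2 to 130 CPM and higher by 1.23 ± 0.16 against Calb1 and 0.62 ± 0.13 against Pvalb neurons, and did not pass against Ntrk3 neurons (0.24 ± 0.11). Tbx3 was higher by 1.17 ± 0.11, 4.46 ± 0.13 and 3.81 ± 0.14, and the POU factor Pou4f2 by 1.06 ± 0.12, 2.36 ± 0.13 and 2.27 ± 0.12. Shox2, a homeobox factor of touch neurons, was lower against Calb1 and Pvalb neurons (-1.22 ± 0.11 and -1.80 ± 0.09) and higher against Ntrk3 neurons (2.28 ± 0.16). Runx1, a factor of unmyelinated neurons, was lower by -1.15 ± 0.17, -1.01 ± 0.16 and -1.38 ± 0.15. Over the transcription factor list, 6 were higher and 9 lower of 18 against Calb1, 7 and 11 of 19 against Ntrk3, and 7 and 10 of 20 against Pvalb neurons. For both lists, the shares over all genes were 21.6%, 24.2% and 27.4% higher and 21.1%, 24.9% and 27.7% lower.

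Immediate early genes were mostly lower in members, with 2 higher and 8 lower of 14 against Calb1 neurons, 3 and 8 of 13 against Ntrk3 neurons and 3 and 9 of 13 against Pvalb neurons. The shares over all genes were 21.6%, 24.2% and 27.4% higher and 21.1%, 24.9% and 27.7% lower, also for the lists that follow. Jun was lower by -2.18 ± 0.17, -1.73 ± 0.14 and -2.37 ± 0.14, and Fos by -0.73 ± 0.10, -0.26 ± 0.07 and -1.25 ± 0.07. Both respond within minutes to activity and to tissue dissociation, and how far dissociation contributed was not tested. Of 13 mitochondrially encoded genes, 11 were higher and 0 lower against Calb1 neurons, 13 and 0 against Ntrk3 neurons, and 3 and 3 against Pvalb neurons. Of cholesterol synthesis genes, 16 were higher and 0 lower of 22 against Calb1 neurons, 8 and 6 of 25 against Ntrk3 neurons, and 11 and 1 of 23 against Pvalb neurons. With thinned UMI sums, 864 of 2220, 2185 of 5093 and 2189 of 4477 genes tested were called. The other lists were called in both directions: GABA and glutamate receptor genes 5 higher and 4 lower of 14, 9 and 2 of 14, and 6 and 6 of 14, calcium-binding genes 8 and 7, 4 and 8, and 9 and 8 of 18, sodium channel genes 3 and 3 of 7, 3 and 5 of 11, and 4 and 4 of 8, antioxidant, iron and ferroptosis genes 11 and 5 of 24, 5 and 10 of 26, and 12 and 6 of 26.

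Between genotypes, few genes differed in members. In the edgeR fit over 6762 genes, 3 were higher and 1 lower in both Ttpa-/- groups together than in Ttpa+/+ mice (0.0592% called), 2 were higher and 1 lower in deficient mice than in Ttpa+/+ mice (0.0444% called), and 1 was higher in supplemented mice than in Ttpa+/+ mice (0.0148% called). These comparisons share the Ttpa+/+ mice. The 4 genes were Wdfy1, Necab1, Vps8 and Calca. DESeq2 called 0 genes in all of these comparisons. The count for both Ttpa-/- groups was 7 without mouse 671, 10 without 698 and 7 without 699. In deficient against Ttpa+/+ mice the count was 9 without 698. In supplemented against Ttpa+/+ mice it was 3 without 654, 8 without 670 and 9 without 671, 698 or 699.

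Wdfy1, which encodes an endosomal protein with a FYVE domain (chr1:79702262-79776143), was at 29.7 and 67.5 CPM in deficient mice 654 and 657 and at 15.2 and 38.4 CPM in supplemented mice 670 and 671, against 4.69 and 7.57 CPM in Ttpa+/+ mice 698 and 699. All 4 Ttpa-/- mice lay above both Ttpa+/+ mice, as for 547 of the 6762 genes tested. The counts were 6 to 38 UMIs in the Ttpa-/- mice and 3 and 8 UMIs in the Ttpa+/+ mice. It was higher by 2.51 ± 0.43 (log2 ± SE; edgeR adjusted p = 0.00153) in both Ttpa-/- groups together and by 2.88 ± 0.47 (edgeR adjusted p = 4.70e-04) in deficient mice, and the difference of 2.13 ± 0.51 in supplemented mice did not pass (edgeR adjusted p = 0.185). A UMI was found in 9.82% and 45.2% of the members of deficient mice 654 and 657. The shares were 5.15% and 20.5% in supplemented mice 670 and 671 and 3.26% and 6.40% in Ttpa+/+ mice 698 and 699. Mouse 670 thus lay below mouse 699. The call for both groups was lost without mouse 657 (edgeR adjusted p = 0.0940), without mouse 671 (0.225), with limma-voom (0.286) and with thinned sums (0.125), within a range of 8.96e-07 to 0.9998 over 16 alternatives. The call for deficient mice was lost without mouse 657 (edgeR adjusted p = 0.875), with limma-voom (0.122) and with DESeq2 (0.401), within 1.09e-07 to 0.875.

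In the other myelinated neurons of the same mice, Wdfy1 was at 28.1 and 70.6 CPM in deficient and 31.9 and 48.1 CPM in supplemented mice, against 15.2 and 13.7 CPM in Ttpa+/+ mice. Mouse 657 was the highest in both populations. Wdfy1 passed in these other neurons too, higher by 1.71 ± 0.24 (edgeR adjusted p = 4.79e-04) in both Ttpa-/- groups together. It was higher there by 1.90 ± 0.27 (edgeR adjusted p = 4.05e-04) in deficient mice. The 1.51 ± 0.28 in supplemented mice did not pass (edgeR adjusted p = 0.0502). The genotype difference in members exceeded that in other myelinated neurons by 0.88 ± 0.45 (log2 ± SE), and this did not pass the test of the interaction (edgeR adjusted p = 1).

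Necab1, a calcium-binding protein gene of the same family as Necab2, was at 73.0 and 56.8 CPM in deficient mice 654 and 657 and 55.7 and 65.8 CPM in supplemented mice 670 and 671, against 26.5 and 18.9 CPM in Ttpa+/+ mice 698 and 699. The genotypes did not overlap, as for 547 genes above and 269 below of the 6762 tested. The 2 Ttpa-/- groups lay in the same range. It was higher by 1.47 ± 0.28 (edgeR adjusted p = 0.00564) in both Ttpa-/- groups together and by 1.49 ± 0.32 (edgeR adjusted p = 0.0494) in deficient mice, and the 1.45 ± 0.31 in supplemented mice did not pass (edgeR adjusted p = 0.0959). Deficient and supplemented mice differed by 0.04 ± 0.29. In other myelinated neurons Necab1 was at 57.1 and 60.98 CPM in deficient, 47.9 and 58.7 CPM in supplemented and 55.3 and 45.1 CPM in Ttpa+/+ mice, a difference of 0.17 ± 0.15 between genotypes. Members lay above the other myelinated neurons in mice 654, 670 and 671 and below them in mouse 657 and in both Ttpa+/+ mice.

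The interaction for Necab1, 1.28 ± 0.26, had the smallest p of the 9062 genes tested but did not pass (edgeR unadjusted p = 4.03e-05, edgeR adjusted p = 0.365). Necab1 lies at chr4:14952245-15149794, 4.86 Mb from Ttpa (chr4:20007938-20030785) on the same chromosome. The labels name no strain, and the part of sequence linked to the Ttpa allele was not tested. The call for both Ttpa-/- groups was lost without mouse 699 (edgeR adjusted p = 0.371), with Ntrk2 of 3 or more (0.0867) and with thinned sums (0.125), within a range of 3.55e-04 to 0.9998 over 16 alternatives. The call for deficient mice was lost in 10 of 16 alternatives, among them without mouse 654, 657 or 699 (edgeR adjusted p = 0.462, 0.108 and 0.576), within 0.00734 to 0.9997.

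Vps8, a subunit of the CORVET complex that tethers endosomes (chr16:21423118-21644680), was at 992 and 435 CPM in deficient mice 654 and 657 and 1124 and 752 CPM in supplemented mice 670 and 671, against 359 and 436 CPM in Ttpa+/+ mice 698 and 699. Mouse 657 lay within the range of the Ttpa+/+ mice, so the genotypes overlapped, and the highest levels were in mice 654 and 670, whose members were the shallowest. The part of depth in the difference was not tested. It was higher by 0.98 ± 0.20 (edgeR adjusted p = 0.0186) in both Ttpa-/- groups together and by 1.19 ± 0.22 (edgeR adjusted p = 0.0175) in supplemented mice. The other myelinated neurons had the same order of mice at the top, 1345 and 572 CPM in deficient and 1520 and 902 CPM in supplemented mice, against 444 and 666 CPM in Ttpa+/+ mice, and the interaction was 0.08 ± 0.11. The call for both groups was lost without mouse 654 (edgeR adjusted p = 0.692), without mouse 698 (0.0806) and with Ntrk2 of 3 or more (0.0867), within 1.002e-04 to 0.9998 over 16 alternatives. The call for supplemented mice was lost without mouse 670 (edgeR adjusted p = 0.0574), within 1.11e-05 to 0.9999.

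Calca, the gene of the nociceptor peptide CGRP (chr7:114631478-114636357), was at 11.4 and 24.9 CPM in deficient mice 654 and 657 and 20.2 and 57.6 CPM in supplemented mice 670 and 671, against 49.97 and 138 CPM in Ttpa+/+ mice 698 and 699. Mouse 671 lay above mouse 698, and mouse 699 was far above the rest. It was lower by -1.83 ± 0.29 (edgeR adjusted p = 6.07e-04) in both Ttpa-/- groups together and by -2.43 ± 0.40 (edgeR adjusted p = 4.70e-04) in deficient mice. Both calls were lost without mouse 699 (edgeR adjusted p = 0.840 and 0.576) and with Ntrk2 of 3 or more (0.936 and 0.371), and the second also without doublets (0.622) and with limma-voom (0.122), within 1.87e-14 to 0.9998 and 1.19e-13 to 0.9997 over 16 alternatives.

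The UMIs of Calca came from few cells. Of 146 UMIs in mouse 699, 114 (78.1%) were in 4 of its 125 members, and the 4 cells with most UMIs held 75 to 83.3% in the other mice. A UMI was found in 10.6% of all members, at a median depth of 5869 UMIs, and in 10.8% of Th cells, a C-fibre touch type that lacks the peptide, at a median depth of 7069 UMIs. The share in members was thus close to that in Th cells, and whether it reflects expression was not tested. The member with most Calca UMIs had 1 in mouse 654, 8 in 657, 3 in 670, 25 in 671, 17 in 698 and 58 in 699. In Th cells Calca was at 3.18 and 118 CPM in deficient, 7.34 and 17.6 CPM in supplemented and 53.5 and 180 CPM in Ttpa+/+ mice, with mouse 699 highest there too. The part of free RNA in the Calca difference was not tested. In the other myelinated neurons Calca was at 314 and 611 CPM in deficient and 411 and 450 CPM in supplemented mice. The Ttpa+/+ mice had 680 and 738 CPM there. The difference between genotypes there, -0.68 ± 0.16, did not pass (edgeR adjusted p = 0.232).

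**Figure D5:**
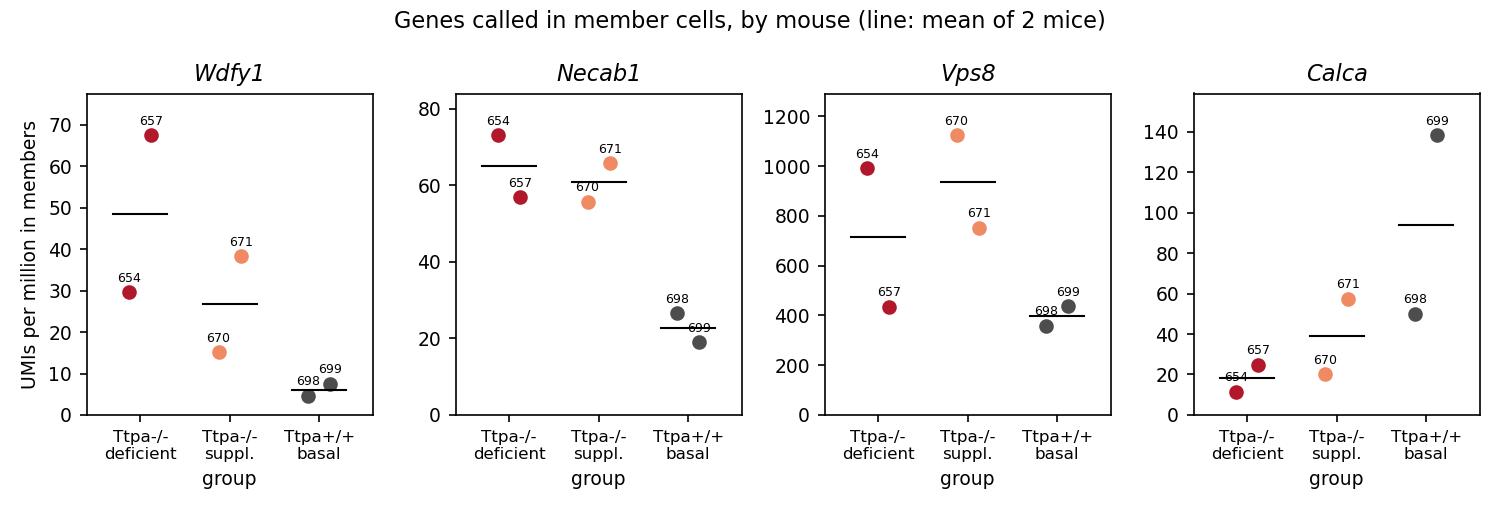
Levels of Wdfy1, Necab1, Vps8 and Calca in members (y axis, CPM, a separate linear scale from 0 for each gene) in each mouse, by group (x axis; dots are mice with their numbers, lines are means of 2 mice). Necab1 was at 55.7 to 73.0 CPM in the 4 Ttpa-/- mice and at 18.9 and 26.5 CPM in the Ttpa+/+ mice, while for Vps8 and Calca the genotypes overlapped.

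Diet gave no call in members. Between deficient and supplemented mice, 0 of 6762 genes passed in edgeR (0% called), with 235 at an unadjusted p under 0.05, and DESeq2 and limma-voom called 0 as well. The count was 2 without mouse 654, 1 without 657 and 1 without 670. The smallest p belonged to Aldh5a1, an enzyme of GABA breakdown, at 16.0 and 10.7 CPM in deficient and 55.7 and 38.4 CPM in supplemented mice (-1.79 ± 0.43, edgeR adjusted p = 0.455). Next was Cebpb, a transcription factor of inflammation, at 29.7 and 21.3 CPM in deficient and 60.7 and 68.5 CPM in supplemented mice (-1.39 ± 0.34, edgeR adjusted p = 0.455). Tfrc, the receptor for iron uptake, was at 203 and 250 CPM in deficient and 149 and 122 CPM in supplemented mice (0.76 ± 0.21, edgeR adjusted p = 0.99998). The groups did not overlap for these 3 genes, as for 1040 genes above and 902 below of 6762, and none passed.

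The A-delta markers did not pass a test between genotypes. Tbx3 was at 189 and 174 CPM in deficient and 228 and 221 CPM in supplemented mice, against 197 and 200 CPM in Ttpa+/+ mice. Necab2 was at 182 and 144 CPM in deficient and 137 and 149 CPM in supplemented mice, against 172 and 178 CPM in Ttpa+/+ mice. Both overlapped between groups. Of the 18 gene lists, only the calcium-binding list held a call in both Ttpa-/- groups together against Ttpa+/+ mice, Necab1 among its 17 tested genes. None of 25 antioxidant, iron and ferroptosis genes, of 25 cholesterol synthesis genes or of 7 vitamin E and lipid transport genes passed, and their median differences were -0.0014, 0.07 and -0.0066, against a median of -0.02 over all 6762 genes. The vitamin E list included Ttpal, a relative of Ttpa, at 29.7 and 23.1 CPM in deficient and 15.2 and 20.6 CPM in supplemented mice, against 29.7 and 37.9 CPM in Ttpa+/+ mice (-0.69 ± 0.30 for both Ttpa-/- groups, edgeR adjusted p = 0.993).

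All 13 mitochondrially encoded genes had a difference below 0 in both Ttpa-/- groups together, with a median of -0.47, and none passed. mt-Co2 was at 1232 and 1744 CPM in deficient and 1197 and 1613 CPM in supplemented mice, against 2071 and 1893 CPM in Ttpa+/+ mice (-0.49 ± 0.17, edgeR adjusted p = 0.861). The median mitochondrial share of a member was 2.39% and 4.61% in deficient mice 654 and 657, 2.14% and 3.86% in supplemented mice 670 and 671, and 5.19% and 4.24% in Ttpa+/+ mice 698 and 699. It was lowest in mice 654 and 670, whose members had the fewest UMIs, and the part of depth was not tested. Over 9062 genes, none had a genotype difference that passed as different between members and other myelinated neurons in edgeR (0% called), with 365 at an unadjusted p under 0.05 and 0 called by DESeq2 or limma-voom; the count was 6 without mouse 698 and 2 without 699.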

How the data were processed

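The authors deposited 1 table of raw UMI counts, 27998 genes by 21685 cells, with 8608 genes at 0. Per the labels' protocols the libraries were 3′ droplet libraries. Per the submitters' processing notes the tools were bcl2fastq 2.17.1.14, Cell Ranger 2.0.1, Seurat 2.3.0 and limma 3.32.10 on mm10; how cells were selected is not stated there. Cells were mapped to mice by the number in their name. Members, lists and populations were chosen with earlier results of these data known. Counts were summed per mouse and tested with edgeR 4.0.16 (TMM, filterByExpr, quasi-likelihood F test, 1 mean per group) with Benjamini-Hochberg adjustment at 0.05 over all genes; each mouse was 1 replicate, so with 2 mice per group the biological coefficient of variation (11.6% in members) came from all 6. The SE of a log2 difference was its size divided by the square root of its F statistic, and is not a spread between mice. Alternatives used DESeq2 1.42.0 and limma 3.58.1. Shares used two-sided exact permutation tests and exact binomial intervals. Doublets were called with scrublet in scanpy 1.11.5 at 0.8% per 1000 cells, since its automatic threshold called 36 cells (0.166%). Thinning drew 2000 UMIs per cell and left out shallower cells. In members, genes were to be named when called at 5 log2 CPM or more without overlap of groups, otherwise as the 5 of smallest p; between populations, the 10 of largest fold at 6 log2 CPM or more in 6 of 6 mice. Ttpa, Wdfy1 and Necab1 were named by name, and lists by up to 2 genes a direction of smallest p; other list genes, and those highest against all 3 populations, were chosen after their values were seen. Reads shared with antisense or overlapping genes were not examined. Some items are not reported here.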

Additional observations from a re-analysis of the deposited data

How the results depend on the processing

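The calls between conditions rest on 2 mice a group and 395085 to 1056332 UMIs per mouse. Against 4 calls for both Ttpa-/- groups and Ttpa+/+ mice, there were 9 without a low-count filter, 0 with DESeq2, 1 with Ntrk2 of 3 or more, 2 with thinned sums and 5 to 10 with 1 mouse left out. For deficient against Ttpa+/+ mice (3 calls) there were 6 without the filter, 0 with DESeq2, 0 with limma-voom, 1 without doublets, 1 with Ntrk2 of 3 or more and 3 to 9 with 1 mouse left out. For supplemented against Ttpa+/+ mice (1 call) there were 7 without the filter, 0 with DESeq2, 2 with Colq and Cadps2 of 2 or more and 1 to 9 with 1 mouse left out. For deficient against supplemented mice (0 calls) leaving out 1 mouse gave 0 to 2. Against Calb1 neurons (2556 calls) DESeq2 gave 1674 and thinned sums 864 of 2220 genes tested; thinned sums gave 2185 of 5093 against Ntrk3 neurons (3512 calls) and 2189 of 4477 against Pvalb neurons (3603 calls), and leaving out 1 mouse gave 1954 to 2535, 3062 to 3490 and 3213 to 3631. The interaction gave 2 calls without the filter and 0 to 6 with 1 mouse left out. Thinned sums leave fewer UMIs and fewer genes to test by construction; otherwise the cause was not tested.

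The difference in member share changed sign with cells thinned for both Ttpa-/- groups (0.140 percentage points) and for supplemented mice (0.374), and for supplemented mice also with the stricter cell filter (0.0184). With 1 mouse left out it ranged from -1.05 to -0.0795 for both Ttpa-/- groups, from -1.19 to -0.222 for deficient and from -0.904 to 0.0633 for supplemented against Ttpa+/+ mice (above 0 without 699), and from -0.638 to 0.0667 for deficient against supplemented mice (above 0 without 671).

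Log2 differences that had not passed and changed sign, given as ranges with 1 mouse left out, were Gap43 against Calb1 neurons (-0.194 to 0.448, and -0.11 with Ntrk2 of 3 or more and with Colq and Cadps2 of 2 or more), Insig2 against Calb1 neurons (-0.0689 to 0.0657), Chrnb2 against Ntrk3 neurons (-0.0163 to 0.248, and -0.0606 with thinned sums), Ttpal against Ntrk3 neurons (-0.0466 to 0.330), Gap43 between genotypes (-0.845 to 0.0567), the interaction of Vps8 (-0.0883 to 0.205), and, between diets, Apoe (-1.73 to 0.123), Necab1 (-0.106 to 0.199, and -0.00317 with the stricter filter) and Wdfy1 (-0.0355 to 1.70). No paired analysis was possible because mice of different groups share no replicate number; sex as a term gave 5, 3, 1 and 0 calls in the 4 condition comparisons.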
